A study of Mus musculus with 21 samples.

Results

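Chemokines and chemokine receptors were examined in the livers of Mdr2 knockout mice and control mice before and after partial removal of the liver. The members were all genes whose symbol on the array was Ccl, Cxcl, Cx3cl, Xcl, Ccr, Cxcr, Cx3cr or Xcr followed by a number, and that had a probe set assigned to that gene alone. Of 12393 genes with such a probe set, 48 were members, and a gene with several probe sets was represented by the brightest one on average. Values are log2 expression values, and a gene was tested if its value exceeded log2 4 on at least 3 of the 21 arrays. That filter kept 7320 genes, among them 15 of the 48 members. Each difference below subtracts one group's mean log2 value from another's and carries its standard error (SE), and a gene is called where limma's adjusted p was under 0.05 over all genes tested.

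Each array held total liver RNA of a 9-month-old male mouse. Knockout mice (KO) were Mdr2-/-, strain FVB129P2, and lacked the transporter encoded by Abcb4 that delivers phospholipid to bile. Control mice were of strain FVB129P2/FVBNJ, so the genotype and the strain background cannot be told apart. All mice of both genotypes underwent a 30% partial hepatectomy, and the lobe removed at surgery was the day 0 sample. Liver taken on day 2 or day 6 was the later sample, and no group without surgery was among the arrays. The groups held 6 KO livers on day 0, 3 control livers on day 0, and 3 livers of each genotype on day 2 and on day 6, from 12 mice in all. All 6 KO mice gave both a day 0 and a later array (mice 250, 254 and 258 on day 2, and 312, 332 and 337 on day 6). Among controls, mice 263 and 265 gave days 0 and 2, mouse 303 gave days 0 and 6, and mice 264, 392 and 393 gave a later array only.

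Chemokines are small secreted proteins, some of them bound to the cell surface until they are cleaved, that direct the migration of white blood cells through G protein-coupled receptors. They are grouped by the spacing of their first cysteines into CC, CXC, CX3C and XC types. In the liver they are made by hepatocytes, Kupffer cells, stellate cells, bile duct cells and sinusoidal endothelium. Mdr2 knockout mice develop bile-induced liver injury with inflammation, in which the recruitment of monocytes, neutrophils and lymphocytes is governed in part by these genes.

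Most of the family lay at low values on every array. None of 30 members exceeded log2 4 on any array, and 6 members (Ccl6, Ccl9, Ccl27a, Cxcl1, Cxcl9 and Cxcl12) exceeded it on all 21. By type, 9 of 12 CXC chemokines and 5 of 18 CC chemokines passed the filter. Neither of the 2 CX3C and XC chemokines passed, and of 16 receptors only Cx3cr1 did. The 33 members that were not tested spanned log2 1.62 to 4.87. A value of one probe set is not a measure against the value of another, since probe sets differ in how strongly they bind, so the order of the genes in the plot of all members is not an order of abundance.

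**Figure D1:**
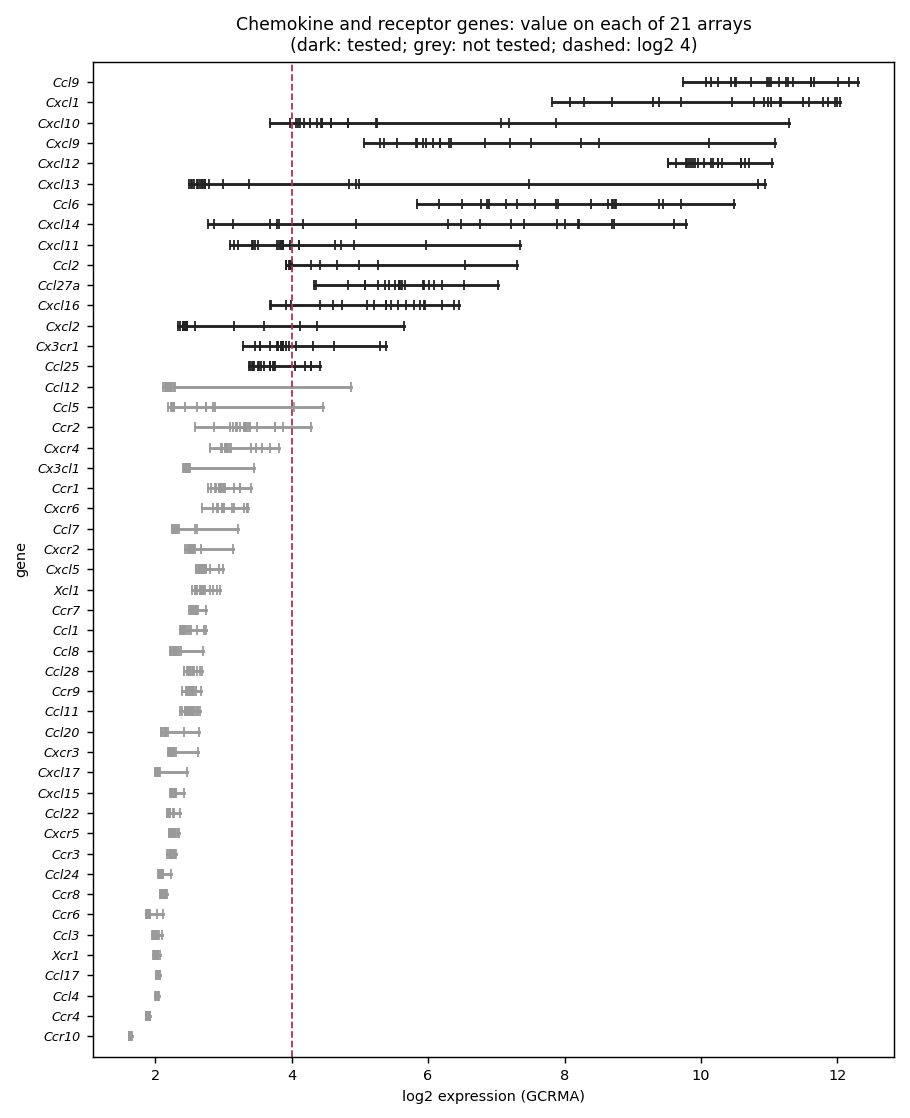
Log2 expression (horizontal axis) of each of the 48 chemokine and receptor genes on the 21 arrays, 1 tick per array; the horizontal bar runs from the lowest to the highest array. The 15 tested genes are dark and the 33 not tested are grey, and most grey bars lie wholly left of the dashed line at log2 4.

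The arrays carried the tissue and genotype of their labels. The mean of 11 hepatocyte genes lay between 12.72 and 13.49 on all arrays. The Abcb4 probe set read 7.25 to 8.96 on KO arrays and 9.23 to 10.33 on control arrays, with no overlap (its place relative to the disruption is unknown here). Signs of RNA quality differed on 3 arrays, whose Gapdh probe sets for the 3' end read higher than those for the 5' end by 9.5 (control mouse 265 on day 2), 2.03 (KO mouse 337 on day 0) and 1.58 (control mouse 263 on day 2). Their beta-actin differences were 5.92, 2.48 and 3.91, against 1.01 to 2.72 on the others. Of the control livers of day 2 these arrays are 2 of 3, so without them the day 2 comparisons rest on the control liver of mouse 264, assumed to vary like the other groups. Values without them, or without mouse 265, are given beside the main results they move.

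Before surgery, the KO livers differed from controls in a few members. On day 0, 2 of the 15 tested members were called, both higher in KO, against 9.66% of all tested genes called and 6.79% called higher. Cxcl14 and Cxcl16 were those members. On day 2, 1 of 15 was called, Ccl9, which was higher in KO, against 5.71% of all genes and 2.75% called higher. On day 6 none of the 15 was called by limma, against 1.73% of all genes, and 2 members, Cxcl12 and Cxcl14, had an unadjusted p under 0.05. The groups did not overlap for 6 members on day 0 (Ccl9, Cx3cr1, Cxcl11, Cxcl12, Cxcl14 and Cxcl16), against 19.8% of all genes. They did not overlap for Ccl9 on day 2, against 20.1% of all genes, and for Cxcl14 on day 6, against 19.5%. The median difference, KO minus control, over the 15 members was 0.66 on day 0, 0.29 on day 2 and 0.51 on day 6, with 10 members above 0 each time. Over all tested genes the medians were 0.02, −0.03 and −0.03. Cx3cr1 and Cxcl2 exceeded log2 4 on KO arrays only, so for them the filter favoured values high in KO. Ccl2 exceeded it on 7 arrays, all of KO livers except that of control mouse 392 on day 6. These genes enter the member medians, and Cx3cr1 also enters the day 0 count of groups that did not overlap.

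**Figure D2:**
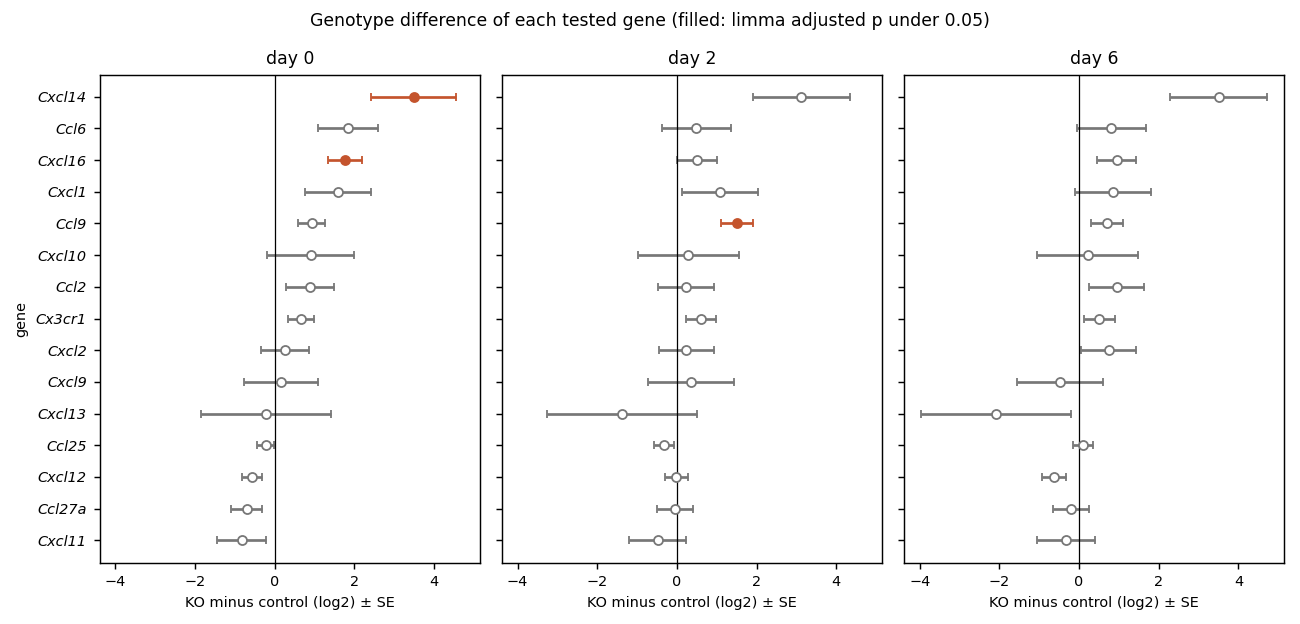
Difference in log2 expression, KO minus control, with its SE (horizontal axis) for each of the 15 tested genes on days 0, 2 and 6. Filled points are called by limma at an adjusted p under 0.05, which are Cxcl14 and Cxcl16 on day 0 and Ccl9 on day 2.

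After surgery no member was called in either genotype. In controls 0 of 15 members were called between day 2 and day 0, where limma called 9.51% of all genes, and 1 member (Ccl6) had an unadjusted p under 0.05. Between day 6 and day 0 in controls 0 of 15 were called, against 2.86% of all genes, and 2 members (Ccl27a and Cxcl16) had an unadjusted p under 0.05. In KO livers limma called no gene at all between day 2 and day 0 (0%), although 439 genes had an unadjusted p under 0.05, none of them a member. Between day 6 and day 0 in KO it called 10 genes (0.137%), none of them a member, and no member had an unadjusted p under 0.05. The groups did not overlap for 6 members on day 2 in controls (Ccl6, Cx3cr1, Cxcl2, Cxcl12, Cxcl14 and Cxcl16), against 25.7% of all genes. On day 6 they did not overlap for 3 (Ccl25, Cx3cr1 and Cxcl1), against 23.4%. All control values of Cx3cr1 and Cxcl2 lay under log2 4, as did the day 6 control values of Ccl25. In KO livers they were apart for none on either day (2.57% and 3.5% of all genes). The median change over the members was 0.15 on day 2 and 0.59 on day 6 in controls, and 0.05 and 0.53 in KO, while all genes had medians of 0.08, 0, −0.02 and −0.05. The change after surgery did not pass the test as different between the genotypes for any member, with 0 genes called for day 2 (1070 at an unadjusted p under 0.05) and 12 genes, 0.164%, for day 6. No member had an unadjusted p under 0.05 in either of those tests. The comparisons share arrays, since the day 0 livers serve both the genotype comparison and the time comparisons.

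The members differed strongly between mice of the same group. The SD within a group had a median of 0.938 over the 15 tested members and of 0.358 over all 7320 genes. It was 2.54 for Cxcl13, 1.71 for Cxcl10, 1.64 for Cxcl14, 1.45 for Cxcl9 and 1.29 for Cxcl1, and only 0.311 for Ccl25 and 0.374 for Cxcl12. The day 6 liver of KO mouse 332 held the highest value of 5 members (Ccl2, Cxcl1, Cxcl2, Cxcl10 and Cxcl11). The day 6 liver of control mouse 303 held the highest value of 3 (Cxcl9, Cxcl13 and Cxcl16), and the day 6 liver of KO mouse 337 that of Cxcl14 and Cx3cr1.

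**Figure D3:**
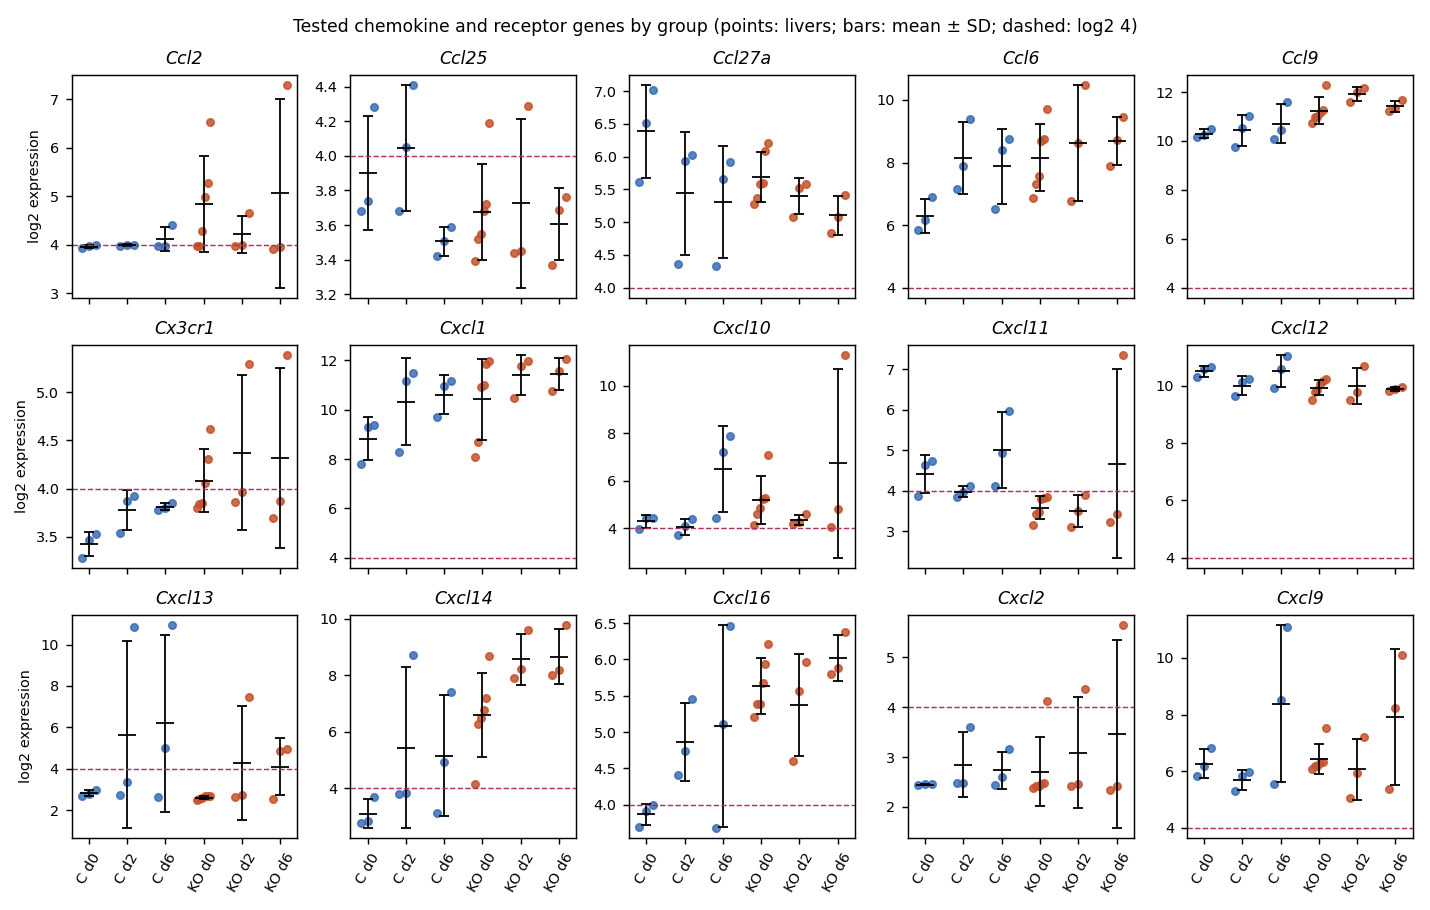
Log2 expression (vertical axes, which differ between panels) of the 15 tested genes in the 6 groups, control in blue and KO in orange. Points are single livers, bars are the mean ± SD of a group, and the dashed line marks log2 4 where it falls in the panel's range. Cxcl14 sits higher in every KO day 0 liver than in any control day 0 liver, and single livers lie far from their group for Cxcl2, Ccl2, Cxcl10 and Cxcl13.

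Cxcl14 is a CXC chemokine made by epithelia and stromal cells, whose receptor has not been settled. It read 2.86, 2.77 and 3.69 in the day 0 livers of control mice 263, 265 and 303. In the day 0 livers of KO mice it read 4.16 (mouse 250), 6.29 (254), 8.70 (258), 6.76 (312), 7.21 (332) and 6.48 (337). All 6 KO livers were thus above all 3 control livers, and the KO values were themselves widely spread. The group means were 6.60 ± 1.47 (SD, n = 6) and 3.11 ± 0.51 (SD, n = 3), a difference of 3.49 ± 1.06 (SE) with a limma adjusted p of 0.0429. The control livers all lay under log2 4, so the size of this difference depends on values at the bottom of the scale.

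The call for Cxcl14 on day 0 lay close to the threshold. The difference stayed positive under all alternatives, but the adjusted p was 0.0503 with each array centred on its median, 0.0925 with no filter and 0.0699 with the mean of its probe sets. The second Cxcl14 probe set gave 2.00 with an adjusted p of 0.17. Leaving out any 1 of 11 arrays also ended the call. Among control day 0 livers these were mice 263 (0.13), 265 (0.154) and 303 (0.0945). Among KO day 0 livers they were mice 254 (0.0594), 258 (0.0866), 312 (0.0643), 332 (0.0749) and 337 (0.0622). The last 3 were the livers of KO mouse 254 on day 2 (0.052), KO mouse 312 on day 6 (0.0506) and control mouse 392 on day 6 (0.0516).

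On the later days Cxcl14 read 7.89, 8.21 and 9.60 in KO livers of day 2 and 8.0, 8.20 and 9.78 in those of day 6. Control livers were uneven, with 3.82 (263), 3.79 (264) and 8.73 (265) on day 2 and 7.41 (303), 4.94 (392) and 3.14 (393) on day 6. The KO minus control difference was 3.12 ± 1.22 on day 2 (limma adjusted p = 0.128) and 3.50 ± 1.22 on day 6 (0.186), neither of which passed. Control mouse 265, the high liver of day 2, is the array with the Gapdh difference of 9.5. Without it the day 2 difference was 4.76 with an adjusted p of 0.0259, whereas without all 3 arrays with a Gapdh difference it was 4.78 with an adjusted p of 0.189.

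Cxcl14 went one way in each mouse followed over time. In all 9 mice with a day 0 and a later array the later value was the higher one. The rise was 0.90 to 3.73 in the 6 KO mice and 0.96 to 5.96 in the 3 control mice. The rises of 5.96 (control mouse 265), 0.96 (control mouse 263) and 3.30 (KO mouse 337) each involve an array with a Gapdh difference. In mouse 263 both values, 2.86 and 3.82, lay under log2 4. How many of all genes moved one way in all 9 mice was not counted. Between groups, the later livers exceeded day 0 by 1.97 ± 1.06 on day 2 and 2.06 ± 1.06 on day 6 in KO (limma adjusted p = 0.899 and 0.937). In controls the differences were 2.34 ± 1.22 and 2.06 ± 1.22 (0.225 and 0.437), so none passed the test over all genes. The day 2 value in controls was 0.70 without mouse 265. The difference between the genotypes in this change was −0.37 ± 1.61 for day 2 and 0.00 ± 1.61 for day 6. Both SEs are larger than the values they belong to.

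Cxcl16, a membrane-bound ligand of Cxcr6 that also acts as a scavenger receptor, read 3.91, 3.70 and 3.99 in the control day 0 livers. The KO day 0 livers read 5.39, 5.21, 6.21, 5.68, 5.39 and 5.94. The groups were separated by more than 1 log2 unit between the highest control and the lowest KO liver. The difference was 1.77 ± 0.43 with a limma adjusted p of 0.0123. As for Cxcl14, the control livers all lay under log2 4, so the size of the difference rests on values at the bottom of the scale. It was called under every alternative of the analysis except leaving out the day 0 liver of control mouse 265, without which its adjusted p was 0.0693. The second Cxcl16 probe set, tested on its own as a choice made after the data were seen, gave 2.10 ± 0.42 (0.00383).

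After surgery the Cxcl16 values of the genotypes overlapped. Control livers read 4.74, 4.41 and 5.46 on day 2 and 6.46, 5.11 and 3.68 on day 6. KO livers read 4.60, 5.56 and 5.96 on day 2 and 6.38, 5.88 and 5.80 on day 6. KO minus control was 0.50 ± 0.50 on day 2 (limma adjusted p = 0.566), or 0.96 without the arrays with a Gapdh difference, and 0.94 ± 0.50 on day 6 (0.456). Control livers of day 2 exceeded those of day 0 by 1.0 ± 0.50 (0.201), with no overlap (0.54 without the arrays with a Gapdh difference), and those of day 6 by 1.22 ± 0.50 (0.214). Without the day 6 liver of control mouse 393 the latter was 1.92, with an adjusted p of 0.0166. The difference between the genotypes in the day 2 change was −1.27 ± 0.66 (0.38), or −0.75 without the arrays with a Gapdh difference. The second Cxcl16 probe set kept the genotypes apart on day 2, by 1.88 ± 0.49 with an adjusted p of 0.0325, and gave 1.86 ± 0.49 (0.0749) on day 6. For controls, day 2 minus day 0, it gave 0.00 ± 0.49 with overlapping groups, and −0.21 ± 0.65 for the difference between the genotypes in the day 2 change, so the probe sets of this gene disagree after surgery.

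Ccl9 and Ccl6 are neighbouring CC chemokine genes on mouse chromosome 11, with 0 protein-coding genes between them in RefSeq, and both proteins signal through Ccr1 on myeloid cells. Ccl9 read 10.15, 10.25 and 10.50 in control livers and 10.97, 11.28, 12.30, 10.99, 10.73 and 11.14 in KO livers of day 0. Every KO liver was above every control liver, by 0.93 ± 0.34 on average, but the limma adjusted p was 0.0999. On day 2 Ccl9 read 10.51, 9.74 and 11.03 in controls and 11.61, 12.17 and 12.01 in KO, a called difference of 1.5 ± 0.40 (0.0347). On day 6 control mouse 393, at 11.61, reached the KO range of 11.24 to 11.66, and the difference was 0.71 ± 0.40 (0.503).

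The day 2 call for Ccl9 was lost when only the day 2 groups entered the fit (adjusted p = 0.231) and with no filter (0.0505). Without the 3 arrays with a Gapdh difference the value was 2.19 with an adjusted p of 0.101, with a single day 2 control liver left, assumed to vary like the other groups. It was also lost without KO mouse 254 (0.135), KO mouse 258 (0.101), control mouse 263 (0.0598) or control mouse 264 (0.0679) of day 2. The second Ccl9 probe set gave a day 2 difference of 3.34 ± 0.49 (0.00129), more than the main one. In that probe set the control mean went from 8.61 on day 0 to 6.94 on day 2, a called fall of 1.67 ± 0.49 on the log2 scale (0.04), whereas the main probe set had control means of 10.30 and 10.43. Control mice 263 and 265, both with a Gapdh difference, read 6.44 and 6.43 there on day 2, against 7.94 in mouse 264, and the part of RNA quality in this was not tested.

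Ccl6 read 6.89, 5.84 and 6.16 in control and 8.76, 7.30, 9.71, 7.57, 6.87 and 8.70 in KO livers of day 0. The lowest KO liver, of mouse 332, lay just within the control range, and the difference of 1.85 ± 0.75 did not pass (limma adjusted p = 0.136). In controls the day 2 values of 7.14, 9.39 and 7.88 were all above those of day 0, by 1.84 ± 0.86 (0.179), a value that was 3.09 without the arrays with a Gapdh difference. In KO livers Ccl6 ran from 6.77 to 10.49 on day 2 and from 7.90 to 9.44 on day 6.

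Cxcl1 and Cxcl2 attract neutrophils through Cxcr2. Cxcl1 read 9.39, 7.81 and 9.29 in control livers of day 0, and from 8.08 (mouse 312) to 11.99 (mouse 258) in the KO livers, with a median of 10.97. KO mice thus included livers in the control range and livers well above it, and the difference of 1.6 ± 0.83 did not pass (limma adjusted p = 0.269). On day 2 the KO livers read 10.46, 11.79 and 11.96 and the control livers 8.29, 11.50 and 11.17, a difference of 1.08 ± 0.96 (0.518). Without the arrays with a Gapdh difference it was −0.10, against the day 2 liver of mouse 264 alone. The later livers of controls read higher than day 0 by 1.49 ± 0.96 on day 2 and 1.79 ± 0.96 on day 6 (0.328 and 0.377; the day 2 value was 2.67 without the arrays with a Gapdh difference), and those of KO by 0.97 ± 0.83 and 1.04 ± 0.83 (adjusted p of 1 for both). Cxcl2 stayed between 2.33 and 2.59 on all but 5 arrays. It reached 4.12 and 5.65 in KO mouse 332 on days 0 and 6, 4.37 in KO mouse 258 on day 2, 3.60 in control mouse 265 on day 2 and 3.16 in control mouse 303 on day 6.

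Ccl2, the ligand of Ccr2 that draws monocytes from bone marrow, read 3.92 to 3.99 in control livers of day 0. In KO livers of day 0 it read 4.28, 3.98, 5.27, 3.98, 6.54 and 4.99, so 4 of 6 were above the control range and the other 2 lay within it. The difference was 0.88 ± 0.60 (limma adjusted p = 0.433). The highest value was 7.30, in KO mouse 332 on day 6, which also had the highest day 0 value. Ccl12 and Ccl7, ligands of Ccr2 in the same chromosome 11 cluster as Ccl2, were not tested. In that same liver Ccl12 read 4.87, against at most 2.29 elsewhere, and Ccl7 read 3.22, against at most 2.61.

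Cxcl9, Cxcl10 and Cxcl11 are interferon-inducible ligands of Cxcr3, the receptor of activated T and NK cells. Cxcl9 did not separate the genotypes before surgery, at 6.83, 6.17 and 5.82 in controls and 6.07 to 7.51 in KO, with a difference of 0.15 ± 0.93 (limma adjusted p = 0.955), or −0.06 without the arrays with a Gapdh difference. On day 6 it read 8.24, 10.11 and 5.36 in KO mice 312, 332 and 337, and 11.09, 8.51 and 5.55 in control mice 303, 392 and 393. In each genotype 2 of 3 livers were above all day 0 livers and 1 was below them. The KO minus control difference on day 6 was −0.48 ± 1.08 (0.919). Against day 0 the day 6 livers differed by 2.11 ± 1.08 in controls (0.346) and 1.48 ± 0.93 in KO (0.987), and −0.63 ± 1.43 was the difference between those changes. Leaving out 1 array moved the control value between 0.76 (without mouse 303 of day 6) and 3.53 (without mouse 393, adjusted p = 0.0501). It moved the KO value between 0.37 (without mouse 332) and 2.75 (without mouse 337).

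Cxcl10 followed the same livers in part. It read 4.83, 5.25, 4.12, 4.58, 7.07 and 5.23 in KO and 4.44, 4.43 and 3.97 in control livers of day 0, a difference of 0.90 ± 1.10 (limma adjusted p = 0.709). On day 6 it read 11.29 in KO mouse 332, 7.87 in control mouse 392 and 7.19 in control mouse 303, against 4.06 to 4.82 in the other 3 livers. Day 6 minus day 0 was 2.22 ± 1.27 in controls (0.417) and 1.54 ± 1.10 in KO (adjusted p of 1). Without the day 6 liver of mouse 332 the KO value turned to −0.74.

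Cxcl11 was the member of this trio that read lower in KO livers before surgery, at 3.15 to 3.84 against 3.87, 4.72 and 4.63 in controls. Those KO livers all lay under log2 4, so the size of the difference rests on values at the bottom of the scale. The groups did not overlap, and the difference of −0.83 ± 0.62 did not pass in the fit of all groups (limma adjusted p = 0.489). With only the day 0 groups in the fit its adjusted p was 0.0377. On day 6 the difference was −0.33 ± 0.72 (0.912), but KO mouse 332 read 7.35 against 3.43 and 3.22 in the other KO livers. Without that liver the day 6 difference was −1.67 with an adjusted p of 0.0358. KO livers of day 6 exceeded those of day 0 by 1.09 ± 0.62 (0.973), a value that was −0.25 without mouse 332. A second Cxcl11 probe set did not exceed log2 4 on any array. Its day 0 means were 3.00 in KO and 3.06 in control livers, and it read 2.88 in KO mouse 332 on day 6. The probe sets of this gene thus differ in both patterns.

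Within mice, the day 6 values of the Cxcr3 ligands depended on the animal. In KO mouse 332 Cxcl9, Cxcl10 and Cxcl11 were 3.94, 4.22 and 4.20 higher on day 6 than on day 0. In control mouse 303 Cxcl9 was 5.27 and Cxcl10 3.22 higher. In KO mouse 337 Cxcl9 was lower by 2.15 on day 6, from a day 0 liver that had the highest Cxcl9 of its group and a Gapdh difference of 2.03.

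**Figure D4:**
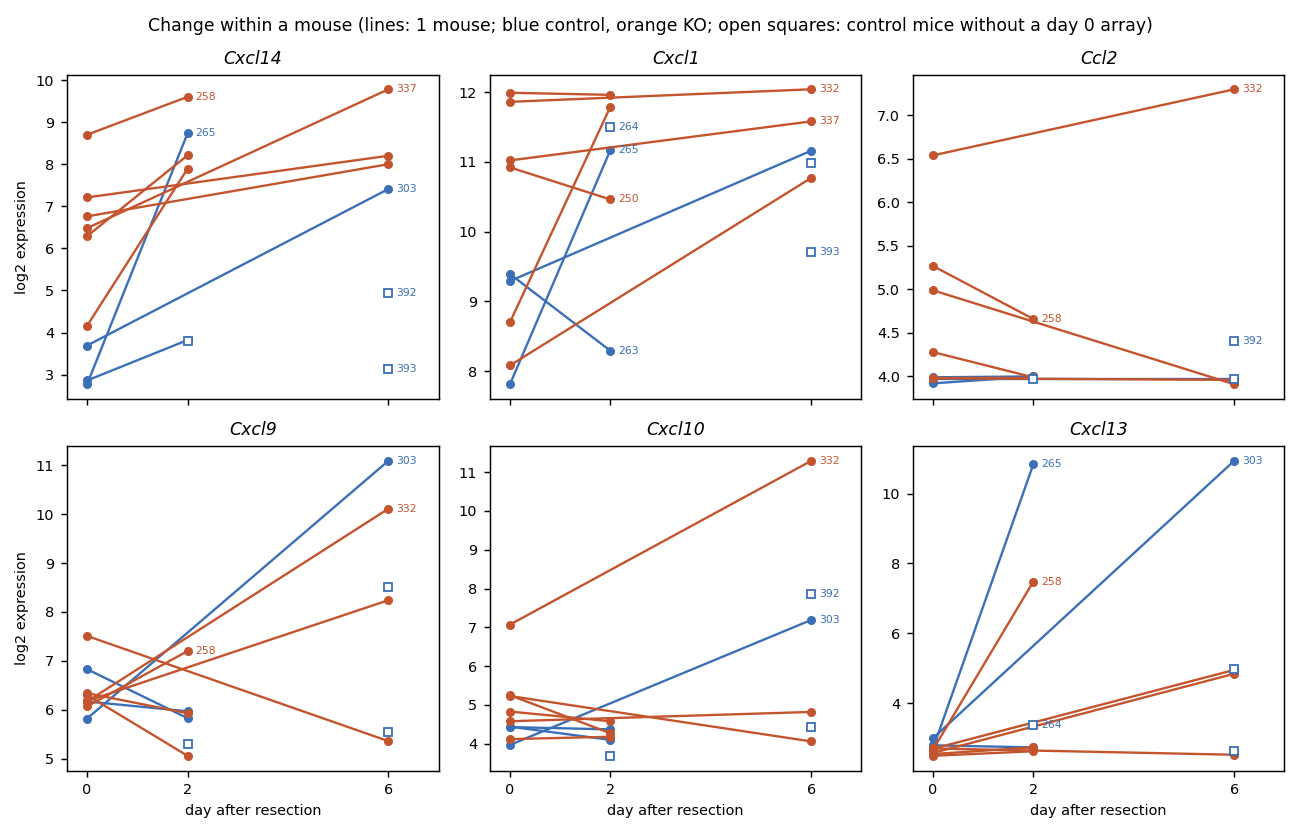
Log2 expression (vertical axes) of 6 members against the day after resection, 1 line per mouse with a day 0 and a later array, control in blue and KO in orange; open squares are control livers of mice without a day 0 array, and mouse numbers are given where points are not crowded. Every Cxcl14 line climbs, while those of Cxcl9, Cxcl10 and Cxcl13 climb steeply in single mice and stay level or drop in others.

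Promoter sequences of 4 of the members are shown because Cxcl1 with Cxcl2, and Cxcl9 with Cxcl10, lie in clusters on mouse chromosome 5. The genes of a cluster were not always high in the same livers. In KO mouse 258 on day 0, Cxcl1 read 11.99 and Cxcl2 read 2.41. Cxcl1 and Cxcl2 have 0 protein-coding genes between them, and Cxcl9 and Cxcl10 have 1, Art3. The sequences are the 250 bases before the start site of each gene, 5' to 3' on the gene's own strand, from RefSeq on GRCm38.p6. Capitals mark matches, on either strand, to 4 motifs: the kappa B consensus, the interferon-stimulated element (GAAA, any 2 bases, GAAA), the STAT-type element TTCNNNGAA and the AP-1 type element TGANTCA. The windows are chr5:90890995-90891244 (plus strand) for Cxcl1, chr5:90903649-90903898 (plus) for Cxcl2, chr5:92328080-92328329 (minus) for Cxcl9, chr5:92348890-92349139 (minus) for Cxcl10 and chr11:83578637-83578886 (minus) for Ccl9, which was called on day 2.
Cxcl1: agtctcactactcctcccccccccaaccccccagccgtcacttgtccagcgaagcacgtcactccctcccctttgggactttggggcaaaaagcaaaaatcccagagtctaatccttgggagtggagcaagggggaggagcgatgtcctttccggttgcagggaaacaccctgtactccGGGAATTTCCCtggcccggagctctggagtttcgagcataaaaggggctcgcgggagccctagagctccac
Cxcl2: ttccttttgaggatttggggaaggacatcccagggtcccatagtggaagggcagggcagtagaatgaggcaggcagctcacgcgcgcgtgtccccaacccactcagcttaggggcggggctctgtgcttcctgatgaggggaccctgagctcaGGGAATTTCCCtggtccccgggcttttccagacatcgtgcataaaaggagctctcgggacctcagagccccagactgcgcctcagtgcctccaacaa
Cxcl9: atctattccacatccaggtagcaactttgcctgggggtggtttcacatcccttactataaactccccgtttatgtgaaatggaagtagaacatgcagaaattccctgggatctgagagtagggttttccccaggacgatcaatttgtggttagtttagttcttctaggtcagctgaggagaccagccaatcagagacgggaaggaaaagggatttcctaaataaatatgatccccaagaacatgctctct
Cxcl10: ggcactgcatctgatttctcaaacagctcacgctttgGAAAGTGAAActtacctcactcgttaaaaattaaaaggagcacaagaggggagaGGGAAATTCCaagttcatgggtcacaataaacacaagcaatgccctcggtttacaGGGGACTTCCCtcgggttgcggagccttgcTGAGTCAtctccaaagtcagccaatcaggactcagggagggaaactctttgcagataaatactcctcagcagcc
Ccl9: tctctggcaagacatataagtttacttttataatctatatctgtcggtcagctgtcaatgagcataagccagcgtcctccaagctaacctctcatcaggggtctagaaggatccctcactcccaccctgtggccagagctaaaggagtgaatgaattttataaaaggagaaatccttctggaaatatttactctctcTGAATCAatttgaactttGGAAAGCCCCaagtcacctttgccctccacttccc

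Of 12 tested members with a promoter entry, 4 held a kappa B match (Ccl9, Cxcl1, Cxcl2 and Cxcl10), against 7.25% of 32851 promoter windows of the same length. The Cxcl1 and Cxcl2 windows share the same run of capitals, made of 2 overlapping kappa B matches that begin at positions −71 and −70 from the Cxcl1 start and −97 and −96 from the Cxcl2 start. Cxcl10 held 3 kappa B matches, of which the pair nearest its start overlap, besides an interferon-stimulated element and a TGANTCA match. The interferon-stimulated element was found in 2 members, Cxcl10 and Cxcl14, against 2.98% of windows. TTCNNNGAA was found in Cxcl14 alone (7.02% of windows), and TGANTCA in Ccl9, Ccl27a and Cxcl10 (6.75%). A member with several windows, such as Ccl27a or Ccl25, was counted if any of them matched, whereas the shares are per window. The Ccl27a match did not lie in all of its windows. The Cxcl9 window held none of the 4. These are matches of letters in the windows and not measured binding.

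Cxcl12, the ligand of Cxcr4 that retains blood-forming and immune cells in tissue, was among the steadiest members. It read 10.30, 10.59 and 10.65 in control and 9.52 to 10.25 in KO livers of day 0. The groups did not overlap, and the difference of −0.57 ± 0.26 did not pass (limma adjusted p = 0.196). A second Cxcl12 probe set gave 0.01, so the direction rests on the probe set used. On day 6 KO livers read 9.82, 9.88 and 9.96 and control livers 10.59, 9.91 and 11.04, which overlap.

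Cxcl13, which guides B cells through Cxcr5, lay between 2.49 and 2.99 in all 9 day 0 livers. On the later days it was high in single livers of both genotypes. These were control mouse 265 on day 2 (10.84), control mouse 303 on day 6 (10.94) and KO mouse 258 on day 2 (7.48). A further 3 livers of day 6, of KO mice 312 and 332 and control mouse 392, read 4.84 to 4.99. Within mice the change reached 8.15 in mouse 265 and 7.95 in mouse 303. In controls the day 2 and day 6 means exceeded day 0 by 2.82 ± 1.88 and 3.36 ± 1.88 (limma adjusted p = 0.346 and 0.402), and neither passed. Without the day 2 liver of mouse 265 the day 2 value was 0.23, and without the day 6 liver of mouse 303 the day 6 value was 0.99. Mouse 265 had the Gapdh difference of 9.5 and mouse 303 one of 0.94 on those arrays, and the part of RNA quality was not tested. In KO mouse 258, whose arrays had no such difference, Cxcl13 was 4.82 higher on day 2.

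Ccl27a, best known as the skin ligand of Ccr10, was lower on the later day than on day 0 in all 9 mice followed, by between 0.06 and 1.25 on the log2 scale. It read 6.52, 5.61 and 7.02 in control and 5.27 to 6.20 in KO livers of day 0, a difference of −0.70 ± 0.39 (limma adjusted p = 0.314). In controls the day 2 and day 6 livers differed from day 0 by −0.94 ± 0.45 (0.188) and −1.08 ± 0.45 (0.228), the former −0.40 without mouse 265 of day 2. The probe sets for Ccl27 share sequence with near copies, and 2 further probe sets name Ccl27a and Ccl27b together, so the copies cannot be told apart. Not every mouse fell in both of those, as control mouse 263 read 5.85 on day 0 and 5.97 on day 2 in a probe set of the pair. As for Cxcl14, the share of all genes that went one way in all 9 mice was not counted. Ccl25, the ligand of Ccr9, ran from 3.37 to 4.41 over all arrays, with overlapping genotypes on each day.

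Among receptors, Cx3cr1, carried by monocytes and resident macrophages, read 3.28, 3.53 and 3.46 in control and 4.62, 4.31, 3.84, 4.06, 3.85 and 3.80 in KO livers of day 0. The groups did not overlap, and the difference of 0.66 ± 0.33 did not pass (limma adjusted p = 0.256). All 5 arrays on which Cx3cr1 exceeded log2 4 were of KO livers, so the filter itself favoured values high in KO. A second Cx3cr1 probe set did not exceed log2 4 on any array, with day 0 means of 2.33 in KO and 2.35 in control. The highest values of the main probe set were 5.39 in KO mouse 337 on day 6 and 5.30 in KO mouse 254 on day 2. Control livers of the later days, at 3.54 to 3.92, were above the highest of day 0, at 3.53, only by a hair. All these values lay under log2 4. Control groups were apart in this way for 25.7% of all genes on day 2 and 23.4% on day 6.

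The other receptors stayed near the bottom of the scale. Ccr2, the receptor for Ccl2, ran from 2.59 to 4.29, with its highest value in KO mouse 312 on day 6. Cxcr4 ran from 2.81 to 3.81, Cxcr2 from 2.44 to 3.14 and Cxcr3 from 2.19 to 2.63. Ccr1, the receptor for Ccl6 and Ccl9, ran from 2.77 to 3.40. A second Ccr1 probe set exceeded log2 4 on 2 arrays, of KO mouse 258 on day 0 (4.06) and KO mouse 337 on day 6 (4.34). Its group means were 2.49, 2.63 and 2.50 in controls and 3.00, 3.44 and 3.36 in KO on days 0, 2 and 6.

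Chemokines not tested included Cxcl5 (2.60 to 2.99), Ccl20 (2.08 to 2.64) and the fractalkine gene Cx3cl1 (2.41 to 3.45). Ccl5, which attracts T cells, read 4.46 in KO mouse 312 on day 6 and 4.04 in KO mouse 337 on day 0, and at most 2.87 elsewhere. A probe set that names Ccl19 with its near copies, and is therefore no member, read 5.44 in control mouse 303 and 4.59 in KO mouse 312 on day 6, against 3.11 to 4.04 on the other arrays.

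Other genes of the same pathways were counted from lists chosen with earlier results of these data known. Their counts stand against the shares of all genes called, which for KO minus control were 9.66% on day 0 (6.79% higher, 2.87% lower), 5.71% on day 2 and 1.73% on day 6. For a list of 7 to 17 genes, 1 or 2 called higher on day 0 differs from that share by about 1 gene. Without the arrays with a Gapdh difference, 23 of 25 calls of list genes on day 0 and 2 of 12 on day 2 were kept, and all kept their direction. Of 7 tested chemoattractants named otherwise and atypical receptors, 1 was higher in KO on day 0. This was Rarres2, which encodes chemerin, by 0.64 ± 0.18 (limma adjusted p = 0.0299), and the list's median difference was 0.40. On day 2 Rarres2 differed by 1.79 ± 0.21 (9.22e-05). In controls it fell by 1.63 on the log2 scale from day 0 to day 2 (SE 0.21, adjusted p = 6.96e-04), and Mif, a cytokine that also binds Cxcr2 and Cxcr4, fell by 1.04 (SE 0.29, 0.0332). Without the arrays with a Gapdh difference the Rarres2 change was −1.65 (0.00294) and that of Mif −0.30 (0.799). Of 17 tested genes of chemokine receptor signalling, 2 were higher in KO on day 0, the G protein subunit Gnb1 by 0.92 (0.00281) and the G protein inhibitor Rgs2 by 1.59 (0.00995), with a list median of 0.26. None of the 17 was called on day 2 or day 6.

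Inducers and partners of chemokine expression behaved as follows. Of 17 tested NF-kappa B and inflammatory cytokine genes, 3 were higher in KO on day 0, with a list median of 0.68. They were the endotoxin co-receptor Cd14 (4.29 ± 1.31, limma adjusted p = 0.0451) and the adhesion molecules Icam1 (2.38 ± 0.64, 0.0235) and Vcam1 (2.30 ± 0.53, 0.00885). On day 2 the lymphotoxin gene Ltb was the 1 gene called (1.57 ± 0.38, 0.0243; 0.275 without the arrays with a Gapdh difference), and on day 6 none was. Tnf, Il1a and Il6 did not exceed log2 4 on any array.

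Some interferon gamma response genes rose after surgery in the control livers. Of 13 tested, 4 were higher on day 6 than on day 0 in controls, where 2.86% of all genes were called. The list median was 2.23 against 0 for all genes. They were Gbp2 (3.11 ± 0.68, limma adjusted p = 0.0162), Irgm1 (2.71, 0.0174), Psmb9 (2.45, 0.0187) and Psmb8 (2.23, 0.015). In KO the same list had a median of 1.48 over that interval and none was called, where limma called only 10 of all genes. The difference between the genotypes in that change was called for 0 of the 13, with a list median of −0.72, so the rise was not shown to differ between them. By genotype, 2 of 13 were higher in KO on day 0, Ubd (5.69 ± 0.75, 5.59e-05) and the receptor gene Ifngr1 (1.04 ± 0.24, 0.0094), and Ubd alone was called on days 2 and 6. The mean of the list's genes on day 6 was 7.82, 6.58 and 6.07 in KO mice 332, 312 and 337, and 7.75, 6.87 and 5.63 in control mice 303, 392 and 393. Within each genotype that is also the order of Cxcl9 on day 6. Ifng itself did not exceed log2 4 on any array.

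Of 15 tested genes for glycosaminoglycan chains and the proteoglycans that hold chemokines on cell surfaces, none was called on day 0 or day 6 between the genotypes by limma. On day 2 the heparan sulphate polymerase Ext1 was higher in KO (1.23 ± 0.35, adjusted p = 0.0479), a call lost without the arrays with a Gapdh difference (0.398). In controls Gpc4 was higher on day 2 than on day 0 (1.25 ± 0.33, 0.0257) and Dpp4, a peptidase that trims chemokines, was lower (−0.89 ± 0.19, 0.00933). Without those arrays they were 0.49 (0.657) and −0.67 (0.224).

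Markers of cells that make or follow chemokines differed between the groups as well. In whole liver RNA, fewer cells of a type and less RNA per cell cannot be told apart. The part of cell makeup in the chemokine values was not tested. Of 10 tested stellate cell and myofibroblast markers, 7 were higher in KO on day 0, led by Col1a1 (4.58 ± 0.89, limma adjusted p = 0.00214), Lum (4.31 ± 0.51, 2.23e-05) and Col3a1 (4.24 ± 0.56, 5.61e-05). The mean of that list was 4.85 to 4.96 in control and 6.42 to 7.77 in KO livers of day 0, while its markers Des and Lrat did not exceed log2 4. On days 2 and 6, 3 and 1 of the 10 were called, all higher in KO, and the 3 of day 2 (Col1a1, Col1a2 and Lum) were lost without the arrays with a Gapdh difference (adjusted p = 0.324 to 0.699). Of 9 tested markers of monocytes and recruited macrophages, 4 were higher in KO (Lyz2 by 2.46, Cd9 by 2.08, Fcgr3 by 1.73 and Gpnmb by 1.62). Lyz2 and Fcgr3 were not called without the arrays with a Gapdh difference (adjusted p = 0.0545 and 0.059). Their list mean was 4.91 to 5.31 in control and 5.65 to 6.15 in KO, with Itgam, Itgax, Trem2 and Clec4e at or under log2 4 on all arrays. None of those 9 was called between the genotypes on day 2 or day 6. Over time in KO, Fcgr1 was higher on day 6 than on day 0 (3.16, limma adjusted p = 0.0144), where 0.137% of all genes were called. Without the arrays with a Gapdh difference this was 3.17 (0.0748). In controls Cd9 was higher on day 2 than on day 0 (1.74, 0.0418), where 9.51% of all genes were called. Without those arrays it was 2.53.

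Of 5 tested bile duct markers 2 were higher in KO on day 0 (Tspan8 by 3.01 and Cd24a by 2.75), with list means of 3.15 to 3.46 in control and 3.92 to 4.61 in KO. Cftr and Muc1 did not exceed log2 4. Of 9 Kupffer cell markers 1 was called on day 0, Cd163, which was lower in KO by limma (−3.39 ± 0.29, adjusted p = 7.19e-07). The list mean of 6.59 to 7.19 in KO overlapped that of 6.70 to 7.53 in controls. On day 6 that list read 9.69, 8.83 and 7.14 in control mice 303, 392 and 393. It read 8.30, 7.89 and 6.36 in KO mice 312, 332 and 337. Cd163 was again lower in KO on day 2 (−4.60, limma adjusted p = 3.5e-07) and day 6 (−4.10, 7.65e-07). Marco was lower in KO on day 6 (−5.39, 0.0421), and in controls it was higher on day 6 than on day 0 (5.78, 0.0208). Of 4 tested neutrophil markers 1 was higher in KO on day 0, Lcn2 (5.08 ± 1.11, 0.00576), which hepatocytes also make. Its list mean was 2.81 to 3.64 in control and 3.51 to 4.63 in KO, with Mpo, Elane, Camp and Mmp8 at or under log2 4. In control livers that list read 4.43 to 5.78 on day 2, when Lcn2, S100a9 and S100a8 were higher than on day 0 by 7.47, 4.28 and 3.99. Without the arrays with a Gapdh difference these were 7.86, 4.12 and 3.74, with limma adjusted p of 0.0648, 0.206 and 0.211.

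Lymphocyte markers were near the bottom of the scale. None of 12 T cell markers passed the filter, and 10 of them, among them Cd3d, Cd3e and Cd8a, did not exceed log2 4 on any array. The T cell list mean stayed between 2.44 and 2.67 over all arrays. Of 9 NK cell markers, 6 (Ncr1, Prf1 and Nkg7 among them) stayed at or under log2 4. The NK list mean on day 6 reached 3.27 and 3.09 in KO mice 312 and 332 and 2.91 in control mouse 392. Control mouse 303, whose day 6 liver had the highest Cxcl9, had an NK list mean of 2.53 there. This was above the 2.36 to 2.39 of control livers of day 0. It was within the range of 2.34 to 2.55 in control livers of day 2. The higher day 2 values, 2.55 and 2.46, came from mice 263 and 265, whose arrays had a Gapdh difference. Of 10 markers of B and plasma cells, 6 stayed at or under log2 4, Cd79a and Cd79b among them, also where Cxcl13 was high. The 3 tested ones (Ighm, Jchain and Sdc1) were not called between the genotypes or over time. In the livers with the highest Cxcl13 the mean of that list differed. It was 4.30 in control mouse 265 on day 2, the highest of all arrays. It was 3.79 in control mouse 303 on day 6 and 3.80 in KO mouse 258 on day 2. Control livers of day 0 had 3.81 to 4.08. Of 11 tested endothelial markers none was called between the genotypes on any day. Of 11 hepatocyte genes Hpd was lower in KO on day 0, and Hpd, Asl and Tat were higher on day 2, with none of these 3 called there without the arrays with a Gapdh difference (adjusted p = 0.164 to 0.343). Of 3 tested mesothelial markers Krt18, which bile duct cells and hepatocytes also express, was higher in KO on day 0. No marker of dendritic cells or platelets passed the filter.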

How the data were processed

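Gene expression was measured on 21 Affymetrix arrays of liver RNA (Trizol extraction, biotin label, 3-prime IVT), per the labels' protocols. The deposited table holds log2 values, judging by their range of 1.33 to 15.54. GCRMA, which corrects background and summarises probes, is named in the submitters' processing notes, with no version given. Further steps of the authors are not given in these sources. Array medians were 3.8 to 4.1, and the number of arrays limits the precision.

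Names of the 22690 probe sets came from the platform annotation. Of them, 64 were array controls, 20380 had 1 symbol, 691 had several and 1555 had none; only those with 1 symbol were used. Of 48 members 14 had several probe sets, and 47 matched RefSeq (GRCm38.p6) by symbol. All comparisons were contrasts of a single limma model with 6 groups (limma 3.58.1, R 4.3.3, 15 residual degrees of freedom), with two-sided p-values adjusted by Benjamini-Hochberg over 7320 genes. The model was tested on simulated data. Plots used matplotlib 3.10.9 and Python 3.11.15.

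The members, lists and named genes were chosen with earlier results of these data known. Named genes were members called in any of 9 comparisons and a fixed set of ligands and receptors known from liver inflammation. Of each other list, up to 3 called genes with the largest difference were to be named; further genes, and members outside the rule, were named after their values were seen. Alternatives were other filters, probe set rules, normalizations and variance models, array weights, the groups in the fit, leaving out arrays, and the mouse as a block. Mouse numbers in the labels tie day 0 and later arrays to a single animal. In 9 pairs, deviations from the group means correlated by −0.0568 to 0.303 (median 0.119, against −0.0107 for other mice), and the block correlation was 0.108.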

Additional observations from a re-analysis of the deposited data

Results flagged for a closer look

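In the 6 KO livers of day 0, single livers stood apart from the rest of their group for 3 tested members. The gap to the nearest liver, as a share of the group's whole range, exceeded Dixon's critical value for 6 samples. Chance alone flags about 1 group in 20. Ccl9 was 12.3 in mouse 258, where the next liver was at 11.28 (share 0.65). Cxcl2 was 4.12 in mouse 332, where the next was at 2.47 (0.943). The other livers of that group read 2.37 to 2.47 for Cxcl2, at the bottom of the scale. There any single liver that reads higher gives a large share. Cxcl9 was 7.51 in mouse 337, where the next was at 6.34 (0.813), and that array also had a Gapdh difference of 2.03. Groups of 3 were not examined in this way.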

How the results depend on the processing

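Over all alternatives other than leaving out 1 array, 459 of 475 values kept their direction and their side of the threshold. The cause of the changes below was not tested. The day 0 count of 2 called members was 1 with no filter, with probe sets averaged per gene and with each array centred on its median. The day 2 count of 1 was 0 with no filter, with only the groups compared and without the arrays with a Gapdh difference above 1. The day 6 count of 0 was 1 with array weights (Cxcl14, 4.14, adjusted p = 0.0261). Leaving out 1 array gave 0 to 2 called members on day 0, 0 to 2 on day 2, 0 to 1 on day 6 and 0 to 1 between day 6 and day 0 in controls. The replicate block (mouse) gave 2, 1 and 0 called members on days 0, 2 and 6, and changed no call. Array weights also brought Ccl9 on day 0 past the threshold (0.0158).

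Direction turned for Cxcl12 on day 0 (0.01 with its other probe set). Without the arrays with a Gapdh difference it turned for Cxcl9 on day 0 (−0.06), Cxcl1 on day 2 (−0.10) and the difference in the Cxcl14 day 2 change (1.26), which was 1.33 with array weights. On leaving out 1 array, the ranges that crossed 0 were −0.07 to 0.43 for Cxcl9 on day 0, −1.67 to 0.39 for Cxcl11 and −1.90 to 0.87 for Cxcl9 on day 6, −0.74 to 2.87 for Cxcl10 and −0.25 to 1.81 for Cxcl11 from day 0 to day 6 in KO, −1.20 to 1.27 for the difference in the Cxcl14 day 2 change, −1.01 to 1.13 for that in the Cxcl14 day 6 change (0.00 as reported) and −2.05 to 0.72 for that in the Cxcl9 day 6 change.

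Centring moved the median of all genes in KO minus control from 0.02 to −0.12 on day 0, −0.03 to −0.15 on day 2 and −0.03 to −0.21 on day 6. The genes called higher and lower on day 0 were 497 and 210 as reported, 381 and 339 after centring and 430 and 242 after quantile normalization. On day 2 they were 201 and 217, 162 and 356, and 190 and 331, and on day 6 91 and 36, 79 and 89, and 85 and 62. Groups of 3 livers and values near log2 4 limit what could be called.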
